A study of Homo sapiens with 16 samples.

Results

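The MYC, MAX and MXD network factors are 10 genes, MYC, MYCL, MYCN, MAX, MNT, MXD1, MXD3, MXD4, MXI1 and MGA, of 60719 gene identifiers in the count tables. They were chosen by name as the proteins that pair with MAX, and MAX itself. RNA was sequenced in 16 libraries of MDA-MB-231 cells, a human triple-negative breast cancer line. Parental 231 cells are wild-type, and 231:TKO cells carry a CRISPR/Cas9 knockout of TXNIP and were grown up from single-cell clones, so that the knockout and the clone cannot be told apart. Both populations were sequenced untreated (2 libraries each) and, 48 hours after transfection, with a non-targeting siRNA (siNT) or with siRNA against Myc (siMyc), as parental 231+siNT, parental 231+siMyc, 231:TKO+siNT and 231:TKO+siMyc (3 libraries each). The siMyc comparisons ask which transcripts depend on Myc when TXNIP is present and when it is absent.

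Myc proteins activate transcription as heterodimers with MAX, a small basic helix-loop-helix leucine zipper protein, on E-boxes, of which CACGTG is the canonical form. The MXD proteins (MXD1, MXD3, MXD4 and MXI1, which is also called MXD2) and MNT bind the same partner and the same letters, but recruit the SIN3 and histone deacetylase corepressors. MGA, a much larger protein, joins MAX to a variant Polycomb complex, PRC1.6. Because MAX is shared, the relative amounts of activating and repressing partners are the classic readout of the network.

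The upstream regions of the members that rose after siMyc, and of MNT, are shown because they are the regulatory sequences nearest to those mRNAs. They were taken from RefSeq for GRCh38.p14, which held 14 windows for 9 of the 10 members, with MYC not among them. Capitals mark the letters CACGTG, which read the same on both strands. MXD4 is shown at chr4:2262110-2262359, MNT at chr17:2401105-2401310 and MXI1 at chr10:110207355-110207604, with MXD4 and MNT on the minus strand and MXI1 on the plus strand, each read 5′ to 3′ toward the gene. The MNT stretch is 206 bases, the part of its 250-base window that lies upstream of the gene in the count tables. The distance given for MNT below runs to the RefSeq start at 2401060.
MXD4: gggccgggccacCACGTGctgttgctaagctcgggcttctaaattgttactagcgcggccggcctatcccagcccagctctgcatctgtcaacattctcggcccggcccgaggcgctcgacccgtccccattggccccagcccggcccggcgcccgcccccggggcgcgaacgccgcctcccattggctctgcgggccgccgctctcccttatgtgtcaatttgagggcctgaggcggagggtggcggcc
MNT: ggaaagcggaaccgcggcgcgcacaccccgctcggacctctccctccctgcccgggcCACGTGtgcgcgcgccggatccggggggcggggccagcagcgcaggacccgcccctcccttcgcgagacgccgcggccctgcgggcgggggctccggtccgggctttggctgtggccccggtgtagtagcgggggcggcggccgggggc
MXI1: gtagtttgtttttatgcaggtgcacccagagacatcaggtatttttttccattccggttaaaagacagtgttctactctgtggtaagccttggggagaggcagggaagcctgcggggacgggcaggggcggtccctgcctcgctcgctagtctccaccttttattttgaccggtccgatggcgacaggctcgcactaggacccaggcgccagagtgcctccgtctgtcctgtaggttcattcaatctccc
Among the 250 bases before each start site, CACGTG was found in 2 of the members' windows, those of MXD4 and MNT, where it ended 233 and 188 bases before the start. It was present in 6.34% of 35116 RefSeq windows of that length. No MXI1 window held it upstream. The related letters CACGCG or, on the other strand, CGCGTG were found in 3 of the members' 14 windows of 300 bases, against 11.4% of all windows. These were 1 window each of MXD3, MXI1 and MGA. A match of letters is a description of the sequence and not of binding.

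Total counts lay between 18953668 and 59799444 per library, and at least 31848151 in the siRNA-treated libraries. A level is given as CPM, the counts of a gene scaled to library totals of 1000000. The markers of the line were present, with VIM at 1860 to 2990 CPM and CD44 at 548 to 1360, whereas ESR1 stayed at or below 0.317 and PGR at or below 0.0777. ERBB2, listed with them among genes low in this line, was detected at 73.2 to 108 CPM. Of the 5 leukocyte markers, MS4A1 had 0 counts, CD3E lay at or below 0.0289 CPM, PTPRC at or below 1.53 and LYZ at 0.0334 to 3.78, and the endothelial markers VWF and CDH5 at or below 0.455. CD14, the monocyte marker of that list, was at 0.434 to 25.1 CPM. TXNIP, the knocked-out gene, was at 288 to 310 CPM in parental 231+siNT and at 6.76 to 8.13 in 231:TKO+siNT. In the untreated cells it was at 293 and 295 CPM in parental 231, and at 12.4 and 46.0 in 231:TKO. TXNIP was thus lower in every 231:TKO library. The untreated 231:TKO replicates differed from each other by more than 1 log2 unit for 511 of 12819 genes, against 4 for the untreated parental replicates. Among the siRNA-treated libraries, parental 231+siNT replicate 1 and parental 231+siMyc replicate 3 stood apart from their groups. Their deviations from the group means correlated with each other (r = 0.9 across genes), and the difference from the other replicates fell with gene length (Spearman's rho -0.596 and -0.595 across genes). The siMyc results in parental 231 cells are therefore given with and without this pair, and the siNT comparison of the populations with and without parental 231+siNT replicate 1.

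Compared per kilobase of exonic length (CPM per kb), MYC was the most abundant member in both siNT groups. In 231:TKO+siNT it was at 29.8 ± 2.45 CPM per kb (SD, n = 3), followed by MAX at 11.4 ± 0.0894, MXD4 at 6.65 ± 0.360, MXI1 at 4.68 ± 0.409, MGA at 3.35 ± 0.167, MNT at 3.07 ± 0.108, MXD1 at 2.84 ± 0.0722 and MXD3 at 2.77 ± 0.166. The libraries of MGA and MNT overlapped, as did those of MXD1 and MXD3, so these neighbours in the order did not differ beyond their spread. In parental 231+siNT, MYC was at 27.1 ± 0.495 CPM per kb (SD, n = 3), but MXD4 came next at 14.9 ± 0.280, ahead of MAX at 8.21 ± 0.630 and MXI1 at 4.80 ± 0.155. The levels of MXD3, at 4.26 ± 0.971, overlapped those of MXI1, and MXD1, MNT and MGA lay between 1.81 and 2.29 CPM per kb on average, overlapping one another. MYC supplied 97.9% to 99.9% of the summed per-length level of MYC, MYCL and MYCN in every library.

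MYCL and MYCN, the other MYC family genes, were barely detected. MYCL had 2 to 75 counts per library (0.0694 to 1.51 CPM). MYCN had 0 counts in 10 libraries and at most 6, where 3 counts, the smallest signal taken as detection, correspond to 0.0502 to 0.158 CPM depending on the library. No fold change is given for MYCN. These levels, and the intervals behind them, cover counting error only, as the reads carry no molecular identifiers.

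**Figure D1:**
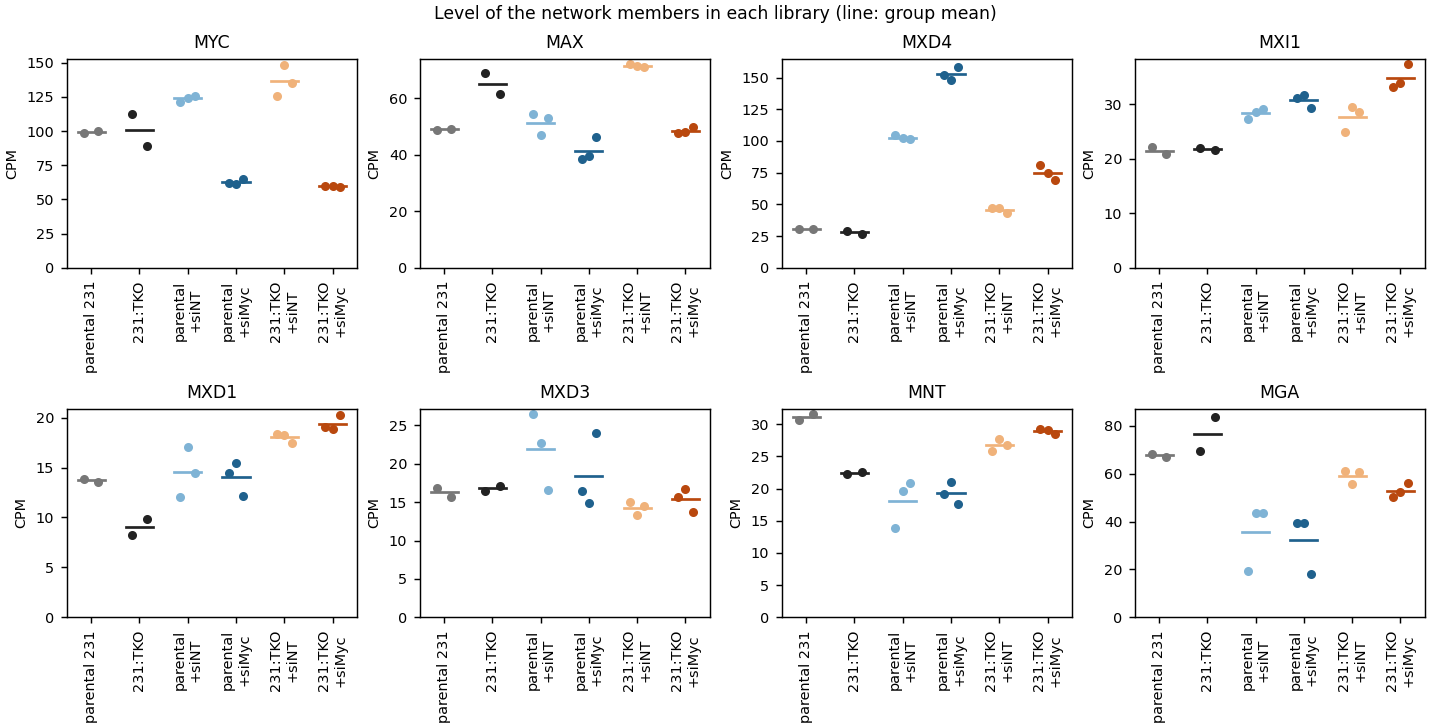
Level of 8 members in CPM (vertical axes, starting at 0) in each library, as points, with the group mean as a line, in the 6 conditions on the horizontal axis. MYC and MAX were lower with siMyc than with siNT in both populations, MXD4 was higher, and 1 library of each parental siRNA group fell away from its replicates for MGA.

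The siRNA lowered its target in both populations. MYC was at 126, 148 and 135 CPM in 231:TKO+siNT and at 59.7, 59.6 and 59.2 in 231:TKO+siMyc. The siMyc libraries were nearly identical and all lay far below the siNT libraries. This was 2.31-fold lower, or -1.21 on the log2 scale (standard error, SE, 0.06), with an adjusted p = 1.7e-11 by the quasi-likelihood test of edgeR, Benjamini-Hochberg adjusted over 22450 genes. In these bulk samples, a lower level in every cell cannot be told apart from fewer cells that hold the mRNA, and the rest of the MYC mRNA, at 59.5 ± 0.286 CPM (SD, n = 3), was still more than that of MAX.

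In 231:TKO cells, 5 of the 10 members passed the test, 2 higher and 3 lower, against 27.2% of all genes tested (13.3% higher and 13.9% lower). The count includes MYC, the siRNA target, whose fall was set by the treatment. MAX, the obligate partner, fell together with MYC. It was at 72.1, 71.3 and 71.1 CPM in 231:TKO+siNT and at 47.7, 48.0 and 49.7 in 231:TKO+siMyc, with no overlap between the groups. The log2 fold change of MAX was -0.57 (SE 0.05, adjusted p = 6.6e-08 by edgeR). MGA, the partner of MAX in PRC1.6, was at 61.0, 55.7 and 60.5 CPM with siNT and at 50.3, 52.2 and 56.1 with siMyc, and the groups overlapped. Its change of -0.17 (SE 0.06, adjusted p = 0.039 by edgeR) was the smallest called, and it was lost without 231:TKO+siNT replicate 1 (adjusted p = 0.18 by edgeR) or replicate 3 (0.16), and without 231:TKO+siMyc replicate 1 (0.15) or replicate 2 (0.14).

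The antagonists did not respond alike. MXD4, an MXD protein expressed in many differentiated cells, rose most. It was at 46.7, 47.5 and 42.9 CPM in 231:TKO+siNT and at 80.7, 74.9 and 69.3 in 231:TKO+siMyc, so that the lowest siMyc library lay well above the highest siNT library. The log2 fold change was 0.70 (SE 0.06, adjusted p = 4.0e-08 by edgeR), or 1.63-fold. MXI1 rose less, from 24.9, 29.5 and 28.5 CPM with siNT to 33.2, 33.9 and 37.5 with siMyc, again without overlap. Its log2 fold change was 0.33 (SE 0.07, adjusted p = 0.0015 by edgeR), or 1.25-fold. MNT, the most widely expressed of these repressors, was at 25.8 to 27.7 CPM with siNT and at 28.5 to 29.2 with siMyc, and MXD1 at 17.5 to 18.4 and 18.9 to 20.3. Both were higher in every siMyc library than in any siNT library, but neither passed the test, with log2 fold changes of 0.11 (adjusted p = 0.25 by edgeR) and 0.10 (adjusted p = 0.36). MXD3, which is known to be expressed in cycling cells, was at 13.4 to 15.1 CPM with siNT and 13.8 to 16.7 with siMyc, with overlap (log2 fold change 0.09, adjusted p = 0.49 by edgeR). Groups that did not overlap were found for 6 of the 10 members, the siRNA target MYC among them, against 38.8% of all genes tested. The counts of MXD3 and MXD1 are less certain, because MXD3 shares 926 exonic bases with RAB24 on the same strand, and MXD1 shares 237 with SNRNP27. MXD3 also shares 1148 exonic bases with PRELID1 on the opposite strand, which had 12.2 times the counts of MXD3. Reads were counted by strand, and whether any PRELID1 reads entered the MXD3 counts was not tested.

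**Figure D2:**
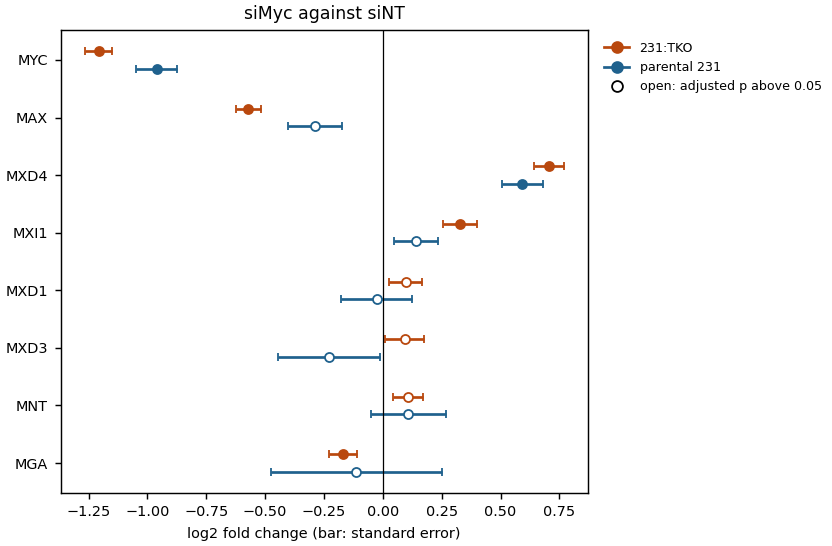
Log2 fold change of 8 members with siMyc against siNT (horizontal axis) in 231:TKO and parental 231 cells, with standard errors as bars, filled where the adjusted p was at most 0.05. MYC and MXD4 are filled in both populations, and MAX, MXI1 and MGA in 231:TKO alone, which is no test of a difference between the populations.

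In parental 231 cells, the same comparison called 2 of the 9 members tested, against 0.594% of all 23728 genes tested (0.24% higher and 0.354% lower). These were MYC, the siRNA target, whose fall was set by the treatment, and MXD4. MYC fell, from 122, 125 and 126 CPM in parental 231+siNT to 61.8, 61.6 and 64.9 in parental 231+siMyc. All siMyc libraries lay at about the same level as those of 231:TKO+siMyc. The log2 fold change was -0.96 (SE 0.09, adjusted p = 0.030 by edgeR), which is 1.95-fold lower. MXD4 rose, from 105, 102 and 101 CPM to 152, 148 and 158, with a log2 fold change of 0.59 (SE 0.09, adjusted p = 0.039 by edgeR). The calls were lost when any of 4 single libraries was left out, those of replicates 2 and 3 of siNT and replicates 1 and 2 of siMyc, with adjusted p for MYC of 0.19 to 0.29 and for MXD4 of 0.19 to 0.29, although the log2 fold changes of MYC stayed between -0.99 and -0.94. Without parental 231+siMyc replicate 3, only MXD4 was lost (adjusted p = 0.051 by edgeR). With both libraries that stood apart left out, MYC was at -1.004 (adjusted p = 1.1e-07 by edgeR) and MXD4 at 0.58 (adjusted p = 3.0e-06), both called.

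The parental 231 fit, which holds the 2 libraries that stood apart, had the wider spread. The common biological coefficient of variation was 15.5%, against 5.26% in the 231:TKO fit. MAX was at 54.3, 46.9 and 52.8 CPM with siNT and at 38.6, 39.5 and 46.2 with siMyc, with all siMyc libraries below all siNT libraries, but its log2 fold change of -0.29 did not pass the test (SE 0.12, adjusted p = 0.29 by edgeR). With a factor for the pair of libraries it was -0.29 with an adjusted p of 8.9e-06 by edgeR, and with the pair left out -0.34 with an adjusted p of 0.0022. MXI1 was at 27.3, 28.6 and 29.1 CPM with siNT and at 31.2, 31.7 and 29.4 with siMyc, and its log2 fold change of 0.14 (adjusted p = 0.57 by edgeR) passed with the factor (adjusted p = 0.042) but not with the pair left out (0.14, adjusted p = 0.12). Both settings were chosen after seeing the data. With the factor 26.8% of all genes tested were called, and with the pair left out 20.8%, against 0.594% in the main fit. Groups that did not overlap were found for 4 of the 9 members, the siRNA target MYC and also MAX, MXD4 and MXI1, against 21.3% of all genes tested.

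The remaining members in parental 231 cells differed more between libraries of a group than between siNT and siMyc. MGA, whose exons sum to 19590 bases and which is the longest member, was at 19.5 CPM in parental 231+siNT replicate 1 and 18.1 in parental 231+siMyc replicate 3, and at 39.3 to 43.6 in the other 4 libraries. MNT was lowest in the same libraries within its groups, at 13.9 and 17.5 CPM, against 19.2 to 21.1 in the others. MXD1 was likewise at 12.01 and 12.14 CPM there and at 14.5 to 17.1 in the others. MXD3 went the other way, with its highest values of 26.5 and 24.0 CPM in these libraries, against 14.9 to 22.7. None of these members passed the test for siMyc in parental 231 cells (adjusted p = 0.72 to 0.97 by edgeR), nor with the pair left out (adjusted p = 0.12 to 0.96), where MGA was at -0.13, MNT at 0.0071, MXD1 at -0.057 and MXD3 at -0.31 on the log2 scale.

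The response to siMyc was then compared between the populations in 1 fit of the 12 siRNA libraries. No member passed, nor did any of 25812 genes in edgeR (0% called), with 1039 genes at an unadjusted p under 0.05, and 6 genes passed by DESeq2. For MYC, the response in 231:TKO minus that in parental 231 was -0.22 log2 units (95% interval -0.46 to 0.02), and for MAX -0.25 (-0.52 to 0.02). The difference was 0.14 for MXD4 (-0.10 to 0.38) and 0.21 for MXI1 (-0.06 to 0.49). For MGA, the interval ran from -1.11 to 1.05, so that a difference of 2-fold in either direction was not detectable. With the factor for the 2 libraries that stood apart, 147 genes were called, 0 of them members, and with both left out 63 genes and 0 members.

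The per-length levels were summed to describe the balance of the network at the mRNA level. In 231:TKO, the sum of MXD1, MXD3, MXD4, MXI1 and MNT went from 19.7 to 20.5 CPM per kb with siNT to 25.6 to 26.8 with siMyc, while the MYC family went from 27.6 to 32.5 to 13.1 to 13.2. The ratio of the former to the latter was 0.632 to 0.718 with siNT and 1.95 to 2.03 with siMyc. In parental 231 it was 0.994 to 1.06 with siNT and 2.53 to 2.55 with siMyc. In both populations the ratio was below or near 1 with siNT and well above 1 with siMyc. Its position against 1 depends on the exonic lengths used. The parental ratios were the higher ones under each siRNA, as MXD4 was. In the untreated libraries the populations overlapped, with ratios of 0.80 and 0.76 in parental 231 and 0.61 and 0.78 in 231:TKO. MXD4 alone, at 22.2 ± 0.739 CPM per kb (SD, n = 3), exceeded MYC at 13.7 ± 0.405 in parental 231+siMyc. The ratio of MAX to MYC was 0.352 to 0.420 in 231:TKO+siNT and 0.585 to 0.616 in 231:TKO+siMyc, and 0.276 to 0.328 and 0.457 to 0.521 in parental 231, higher in every siMyc library than in any siNT library of the same population. Both ratios divide by the MYC family or by MYC, the siRNA target, so a rise with siMyc was in part built in by its fall. The ratio of MAX to MYC rose although MAX itself was lower with siMyc. These sums describe mRNA and not protein, and no test was run on them.

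**Figure D3:**
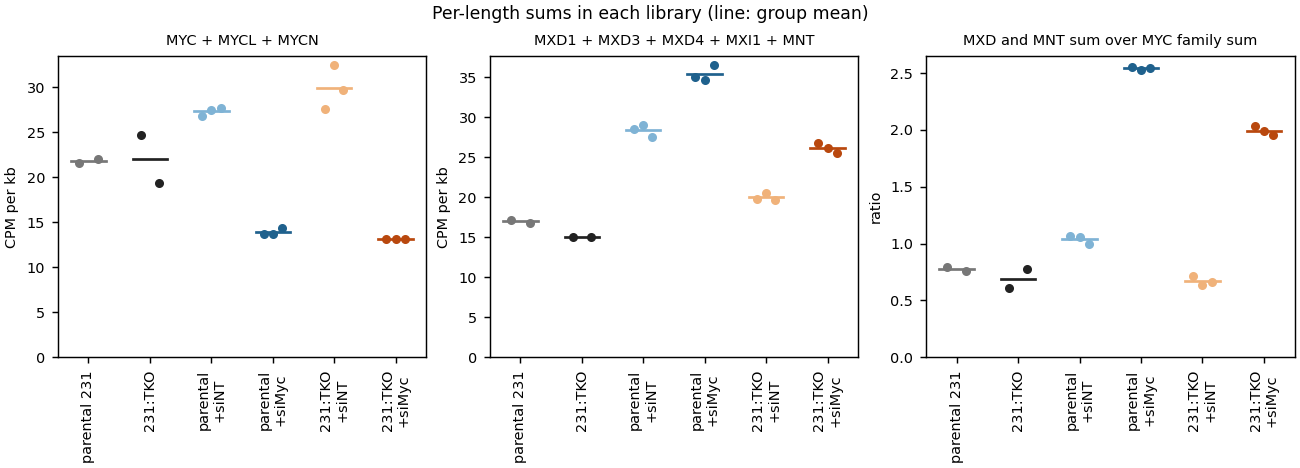
Summed per-length levels (CPM per kb) of the MYC family, of the MXD genes with MNT, and the ratio of these sums, in each library as points with the group mean as a line. The ratio lay between 0.609 and 1.06 in all libraries without siMyc and between 1.95 and 2.55 in those with it. Its denominator is nearly all MYC, the siRNA target.

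The partners of the network were read in the same fits. MLX, the alternative partner of MXD1, MXD4 and MNT, fell in 231:TKO (log2 fold change -0.20, adjusted p = 0.0044 by edgeR). Of the 3 genes of the MLX arm, 1 passed (33.3%, against 27.2% of all genes tested, and 0 to 2 lower over the alternatives). Of 15 SIN3 and histone deacetylase genes, which serve the MXD proteins and MNT, 4 were lower, 1 was higher and 10 did not pass, so that 33.3% were called against 27.2% of all genes tested, with a median log2 fold change of -0.07. The number lower ran from 0 in 1 fit of the 12 siRNA libraries to 8 with a surrogate variable. SAP30, a SIN3 subunit, fell by 0.36, HDAC2 fell by 0.25 and HDAC1 fell by 0.18 on the log2 scale, while SUDS3, another SIN3 subunit, rose by 0.19. Of 10 PRC1.6 partners of MGA, 4 were lower (40%, against 13.9% of all genes tested, and 1 to 5 over the alternatives). Only 1 was higher (10%, against 13.3%). TFDP1, a partner of the E2F factors, was at -0.33, PCGF6 at -0.26, CBX3 at -0.22 and RING1 at 0.29. The median over all genes tested was 0.01.

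Of 19 listed coactivators of Myc, 9 were lower (47.4%, against 13.9% of all genes tested, and 5 to 10 over the alternatives), 1 was higher and 9 did not pass in 231:TKO, with a median log2 fold change of -0.13. RUVBL1, an ATPase of the TIP60 and INO80 complexes, fell from 66.9 ± 1.40 CPM to 40.1 ± 0.647 (SD, n = 3 each), or -0.75 on the log2 scale (adjusted p = 2.6e-09 by edgeR). WDR5, which tethers Myc to chromatin, changed by -0.58 and KAT2A, the GCN5 acetyltransferase, by -0.57, whereas KAT2B rose by 0.21. Of 19 genes for the turnover of Myc protein, 8 were lower (42.1%, and 5 to 9 over the alternatives) and 1 was higher. SKP2, a ubiquitin ligase subunit for Myc, fell by 0.61 (adjusted p = 9.3e-08 by edgeR), SET, an inhibitor of PP2A, fell by 0.50 and the kinase PLK1 fell by 0.40, while FBXO32, a ubiquitin ligase subunit, rose by 0.45. Of 5 other Myc-binding proteins, 2 were lower (40%, against 13.9% of all genes tested, and 0 to 2 over the alternatives). They were MYCBP2 and MYCBP, which fell by 0.25 and 0.35.

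Known targets of Myc were counted in the same way. Of 19 measured genes that Myc is known to activate, 17 were lower (89.5%, against 13.9% of all genes tested, and 14 to 18 over the alternatives), 0 were higher and 2 did not pass in 231:TKO, with a median of -0.67. SRM, the spermidine synthase, fell from 120 ± 4.66 CPM to 55.2 ± 3.22 (SD, n = 3 each; log2 fold change -1.13, adjusted p = 2.3e-11 by edgeR), NOP16, a nucleolar protein, changed by -1.26 and HSPD1, the mitochondrial chaperone HSP60, by -0.88. Of 9 measured genes that Myc is known to repress, 7 were higher (77.8%, against 13.3% of all genes tested, and 3 to 7 over the alternatives) and 0 lower, with a median of 0.33. CDKN1C, the cyclin-dependent kinase inhibitor p57, rose by 0.85, NDRG2 rose by 0.64 and ITGB4, an integrin subunit, rose by 0.38. TXNIP rose as well in parental 231 cells, from 310, 298 and 288 CPM with siNT to 442, 445 and 419 with siMyc (log2 fold change 0.57, adjusted p = 0.046 by edgeR). In parental 231 cells, 5 of the 19 activated targets were lower, against 0.354% of all genes tested. There, 1 of the 9 repressed targets was higher, against 0.24%. The medians were -0.52 and 0.18, against -0.0016 over all genes, and none of the partner, coactivator and turnover genes passed by edgeR. With the 2 libraries that stood apart left out, a setting chosen after seeing the data, 20.8% of all 22445 genes tested were called (2231 higher and 2442 lower). In that fit, 18 of the activated targets were lower, 5 of the repressed targets were higher, and among the coactivators 8 were lower.

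The genes most like MYC across the 12 siRNA libraries, by Pearson's r of log2 CPM over 13522 genes, were RCC1 (r = 0.993), TRAP1 (0.990) and EIF3D (0.986). RCC1 is also among the listed activated targets. These libraries fall into a siNT and a siMyc cluster, and within the 6 siNT libraries r was 0.866, 0.596 and 0.650, and within the 6 siMyc libraries 0.313, 0.524 and 0.639. Of the members, MAX was at 0.765, MXI1 at -0.759 and MXD4 at -0.523 over the 12 libraries.

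The populations were also compared without siMyc, which asks whether TXNIP loss alters the network itself. MYC did not pass in either comparison. It was at 98.6 and 99.9 CPM in untreated parental 231 and at 113 and 88.8 in 231:TKO, 1 replicate above and the other below both parental libraries (log2 fold change 0.06, adjusted p = 0.80 by edgeR). With siNT it was 0.07 higher on the log2 scale in 231:TKO (adjusted p = 0.56), with overlapping groups. In the untreated cells its direction turned on the 231:TKO replicate kept. Without replicate 1, MYC was called lower in 231:TKO, at -0.14 (adjusted p = 0.027 by edgeR), and without replicate 2 it was called higher, at 0.22 (adjusted p = 0.0058), with the remaining 231:TKO library assumed to vary like the parental ones.

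MAX was higher in 231:TKO in both. It was at 48.7 and 49.1 CPM in untreated parental 231 and at 68.8 and 61.5 in 231:TKO, a log2 fold change of 0.45 (SE 0.08, adjusted p = 0.037 by edgeR), and this call was lost without either parental replicate (adjusted p = 0.43 and 0.42). With siNT the log2 fold change of MAX was 0.41 (SE 0.09, adjusted p = 0.0047 by edgeR), with all 231:TKO libraries, at 71.1 to 72.1 CPM, above all parental libraries, at 46.9 to 54.3. The difference between the effects was -0.04 (adjusted p = 0.94). Of the 9 members tested, 2 passed in the untreated cells, MAX higher and MNT lower, against 9.61% of all genes tested (5.43% higher and 4.18% lower), and 5 passed with siNT, 2 higher and 3 lower, against 36.8% (16.1% higher and 20.7% lower). Groups that did not overlap were found for 6 of 9 members in the untreated cells, against 58.1% of all genes tested, and for 7 of 9 with siNT, against 51.4%.

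**Figure D4:**
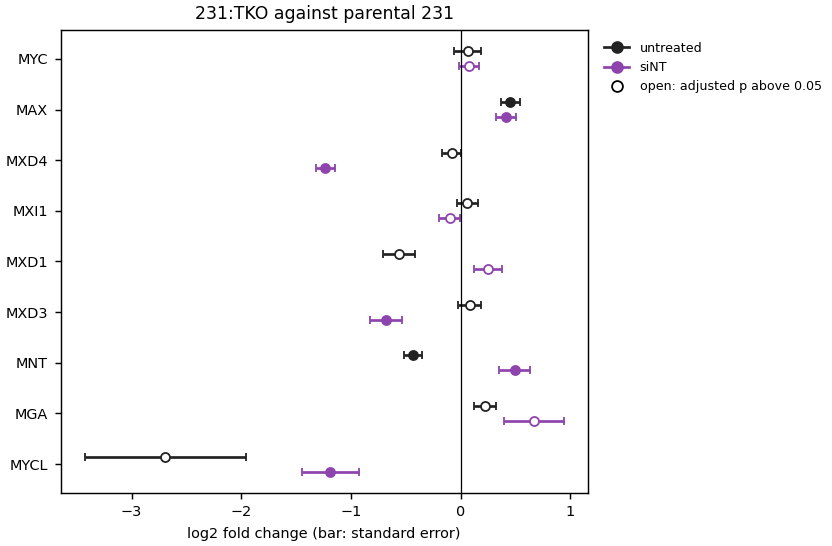
Log2 fold change of 9 members in 231:TKO against parental 231 (horizontal axis) in untreated and siNT-treated libraries, with standard errors as bars, filled where the adjusted p was at most 0.05. MAX is filled on the same side in both, MNT on opposite sides, and MXD4, MXD3 and MYCL in the siNT libraries alone, which for MYCL is no test of a difference.

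For 4 other members, the difference between 231:TKO and parental 231 was not the same in untreated and siNT-treated libraries. MXD4 was at 30.8 and 30.2 CPM in untreated parental 231 and at 29.2 and 26.8 in 231:TKO (log2 fold change -0.08, adjusted p = 0.63 by edgeR). With siNT it was at 105, 102 and 101 CPM in parental 231 and at 46.7, 47.5 and 42.9 in 231:TKO, where it was called lower (log2 fold change -1.23, SE 0.09, adjusted p = 1.3e-06 by edgeR). The difference between these effects, tested in 1 fit of the 10 untreated and siNT libraries, was -1.15 (SE 0.14, adjusted p = 8.1e-05 by edgeR). MNT was at 30.6 and 31.5 CPM in untreated parental 231 and at 22.2 and 22.6 in 231:TKO, a log2 fold change of -0.43 (SE 0.08, adjusted p = 0.040 by edgeR), whose call was lost without either parental replicate (adjusted p = 0.42 and 0.46). With siNT it was 0.50 higher on the log2 scale in 231:TKO (adjusted p = 0.017 by edgeR), at 25.8 to 27.7 CPM against 13.9 to 20.8, and this call was lost without 231:TKO+siNT replicate 2 (adjusted p = 0.081) or 3 (0.059). The difference between the effects was 0.93 (SE 0.20, adjusted p = 0.0063 by edgeR). MXD1 was at 13.9 and 13.6 CPM in untreated parental 231 and 8.22 and 9.88 in 231:TKO (log2 fold change -0.56, adjusted p = 0.078), and with siNT its log2 fold change was 0.25 (adjusted p = 0.14), a difference of 0.81 (adjusted p = 0.014 by edgeR). This call was lost without either untreated parental replicate (adjusted p = 0.072 and 0.060). In the untreated cells MXD1 was at -0.45 on the log2 scale without 231:TKO replicate 1 and at -0.70 without replicate 2. Each of these fits left 1 231:TKO library, so its spread was not measured. With siNT MXD1 was called higher without parental 231+siNT replicate 2 (adjusted p = 0.036 by edgeR). MXD3 changed by 0.08 (adjusted p = 0.68) in the untreated cells and by -0.68 (adjusted p = 0.0042 by edgeR) with siNT, a difference of -0.77 (adjusted p = 0.035). The call for this difference was lost in 8 of 10 fits with 1 library left out (adjusted p = 0.0505 to 0.16 by edgeR). It was kept only without parental 231+siNT replicate 1 or 3. Of the 9 members tested, 4 passed for the difference, 2 in each direction, against 14.1% of all genes tested (6.2% higher and 7.91% lower). MXI1 did not pass with siNT (adjusted p = 0.47 by edgeR). MGA was at 0.67 on the log2 scale and did not pass (adjusted p = 0.087), but without parental 231+siNT replicate 1, which stood apart, it was called higher in 231:TKO at 0.40 (adjusted p = 2.2e-07). It was also called without parental 231+siNT replicate 3 (0.87, adjusted p = 0.032), with a surrogate variable (0.78, adjusted p = 5.4e-17) and by DESeq2 (0.69, adjusted p = 0.015). MGA is the member whose exonic length differed between the annotation releases of these groups. Without parental 231+siNT replicate 1, the other calls with siNT stayed, with MXD4 at -1.20, MAX at 0.47, MNT at 0.35, MXD3 at -0.50 and MYCL at -1.10. MYCL, at 14 to 24 counts in 231:TKO+siNT and 58 to 71 in parental 231+siNT, was lower in 231:TKO (log2 fold change -1.19, adjusted p = 0.0039 by edgeR).

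The level of genes around a member moved with some of these differences. Within 10 Mb of MNT, on chromosome 17 from 2384073 to 2401104, the 154 genes above 1 CPM had a median log2 ratio to parental 231 of -0.316 and -0.373 in the untreated 231:TKO replicates, where MNT itself was at -0.436 and -0.431. In 231:TKO+siNT, the median over 156 genes was -0.081, -0.022 and -0.047, and MNT was at 0.477 to 0.582. Around MXD1, on chromosome 2 from 69897688 to 69942945, the median of 105 genes was -0.529 in untreated 231:TKO replicate 1 and -0.020 in replicate 2, with MXD1 at -0.666 and -0.436. Around MXD4, on chromosome 4 from 2247432 to 2262109, it was 0.416 and 0.346 while MXD4 was at -0.019 and -0.164, and with siNT the genes around it were at -0.004 to 0.029 and MXD4 at -1.29 to -1.14. Around MAX, on chromosome 14 from 65006174 to 65102695, the genes were at 0.010 and -0.071 untreated and at -0.218 to -0.167 with siNT, while MAX itself was higher throughout, at 0.346 to 0.530. Around MXD3, on chromosome 5 from 177301461 to 177312757, the medians lay between -0.068 and -0.022. Positions are those of GRCh38, and the part of these regional shifts in the members' differences was not tested. Read pairs were counted in the siRNA libraries and single reads in the untreated ones. Ensembl release 104 was used for the siRNA-treated parental 231 libraries and release 102 for all others. The alignment files named in the headers carry 3 prefixes, 1 for the untreated, 1 for the siRNA-treated 231:TKO and 1 for the siRNA-treated parental 231 libraries. In the siNT comparison, the population therefore cannot be told apart from the annotation and the prefix. The exonic length was the same in both releases for all members but MGA, which had 17651 bases in release 102.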

How the data were processed

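STAR was used by the authors for alignment to GRCh38 and featureCounts 1.6.3 for counting on Ensembl genes (reverse strand, largest overlap), and raw counts per gene were deposited without normalization. Gene symbols were matched for 58705 of 60719 identifiers. CPM was computed from each library's total, and CPM per kb from the exonic length in the count tables. The 10 members and the gene lists were chosen with earlier results of these data known. Named genes were all members, TXNIP, up to 3 genes per direction of each list with the lowest adjusted p in 231:TKO, and the 3 genes most correlated with MYC (mean of at least 1 CPM, pseudocount 0.5).

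Genes whose counts summed to more than 5 in a fit entered the quasi-likelihood test of edgeR 4.0.16 (R 4.3.3, TMM scaling, robust dispersions), at a Benjamini-Hochberg adjusted p of at most 0.05 over all genes tested. Each comparison was fitted on its own libraries, and differences between effects as interaction contrasts. The difference between the untreated and siNT effects was added after the data had been seen. The labels number replicates but do not say whether they came from separate cultures, so p-values measure the spread between these libraries. No pair of replicates held identical counts. Alternatives were DESeq2 1.42.0, its size factors in edgeR, other filters, an adjusted p of at most 0.01, a block for the replicate number, 1 surrogate variable from sva 3.50.0, genes of equal length in both releases, 1 fit of the 12 siRNA libraries, each library left out, and, added after the data had been seen, a factor for or the removal of 2 parental 231 libraries. The steps were tested on simulated data with 200 genes changed by 1 log2 unit, of which edgeR called 97% in the design of siMyc in 231:TKO (21881 genes), 86.5% in that of siMyc in parental 231 (23109 genes), 80% for the difference of these responses (25118 genes), 67.5% for the untreated comparison (19320 genes), 94.5% for the siNT comparison (22660 genes) and 63% for the difference of the last 2 (24422 genes). These percentages belong to data made for that purpose. How often a change of that size is called in the real libraries, where 2 parental 231 libraries stood apart, was not tested. The symbols BOP1 and PECAM1 of the lists were not matched. Other measurements of the study were not analysed here.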

Additional observations from a re-analysis of the deposited data

Results flagged for a closer look

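The difference between 231:TKO and parental 231 was itself different for 4 members between the untreated and the siNT-treated libraries by an interaction test (edgeR's quasi-likelihood test). On the log2 scale, the effect with siNT minus the untreated effect was -1.15 for MXD4, 0.93 for MNT, 0.81 for MXD1 and -0.77 for MXD3. With each library left out in turn, the calls of MXD4 and MNT were kept, that of MXD1 was lost in 2 of 10 cases (adjusted p = 0.060 and 0.072 by edgeR) and that of MXD3 in 8 of 10 (adjusted p = 0.0505 to 0.16). The untreated libraries differ from the siNT libraries in transfection, in read layout, in the prefix of the alignment files and, for parental 231, in the annotation release, and these cannot be told apart. No group held 4 or more libraries, so no library was tested as an outlier.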

How the results depend on the processing

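Over 883 pairs of a member's log2 fold change and an alternative, MYCN left out, 794 kept their direction and their side of the threshold. With siMyc in 231:TKO, 4 to 5 members, the siRNA target MYC among them, were called under every alternative. Of all genes tested, 27.2% were called in the main fit, 19.2% at an adjusted p of at most 0.01 and 36.4% with a surrogate variable. The log2 fold change of MYC lay between -1.26 and -1.14 with each library left out. In parental 231, 0 members were called at an adjusted p of at most 0.01 or with the replicate block. In both settings 0 of all 23728 genes passed, so these counts say nothing about the members. With the factor for the 2 libraries 4 members were called, against 26.8% of all genes tested. With a library left out 0 to 2 members were called, where the share of all genes is not given here. It was 0.594% in the main fit. MYC there was at -0.96 (adjusted p = 0.030, above 0.01) and with the replicate block at -0.96 (adjusted p = 0.40 by edgeR), and between -0.99 and -0.94 with a library left out. In the untreated comparison, 0 members were called at 0.01 (1.15% of all genes tested) or with the replicate block (4.53%). With a surrogate variable 4 members were called, where 32.9% of all genes tested passed. For the difference of the 231:TKO effects, 2 members were called at 0.01, against 7.18% of all genes tested. With a library left out 2 to 4 members were called, where MXD4 and MNT kept their calls. The main fit called 14.1% of all genes tested, and the share with a library left out is not given here. The replicate numbers were not taken as pairs, since the correlation of same-numbered deviations was -0.154, 0.127 and 0.269 in the 231:TKO siRNA libraries, -0.816, 0.638 and -0.75 in the parental ones and 0.0249 in the untreated ones.

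Of the members whose sign turned, only MYC in the untreated comparison was called under any of the alternatives that turned it. For siMyc in parental 231, MYCL was 0.075 with both libraries left out, and with 1 left out MNT ranged from -0.056 to 0.23, MXD1 from -0.15 to 0.092, MYCL from -0.30 to 0.0083 and MGA from -0.41 to 0.17. For the difference of the siMyc responses, MNT was -0.013 with DESeq2 or with its size factors and -0.052 with a surrogate variable, and with 1 left out MNT ranged from -0.16 to 0.13, MYCL from -0.33 to 0.070 and MGA from -0.37 to 0.21. MYC ranged from -0.14 to 0.22 in the untreated comparison, called at both ends (without 231:TKO replicate 1 and without replicate 2), and from -0.16 to 0.20 in the difference of the 231:TKO effects, where it was -0.0045 with genes of equal length and MAX ranged from -0.13 to 0.049. The cause was not tested. List counts stayed within 1.5 times in 211 of 240 cases in 231:TKO and 213 of 272 in parental 231. With TMM factors, levels moved by at most 4.76%, within 1 SD in 44 of 60 cases.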
